A study of Mus musculus with 47 samples.

Results

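The genes described here make, break down and act on cyclic nucleotides: the adenylyl cyclases (Adcy), the cyclic nucleotide phosphodiesterases (Pde), the catalytic and regulatory subunits of protein kinase A (PKA), and the A-kinase anchoring proteins (Akap). They were chosen by gene symbol alone, as every row of the read count table named as such an enzyme, subunit or anchor, which gave 54 of 22800 gene symbols: 10 Adcy, 22 Pde, 2 PKA catalytic, 4 PKA regulatory and 16 Akap genes. At least 1 read was counted on 47 of the 54 in the cells compared.

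The study sampled GABAergic interneurons that make neuropeptide Y (NPY+ cells) by drawing the cytosol of single cells into a patch pipette and sequencing the polyadenylated RNA of each cell. The cells came from NPY-hrGFP reporter mice of both sexes, aged 3 to 8 weeks, in which green fluorescence marks cells that use the Npy promoter (the deposited design text calls the strain NPY-EGFP), and 8 mice were used in all. Compared here were 10 cells of layers 1 and 2 of the auditory cortex (AC) and 13 cells of stratum lacunosum moleculare of hippocampal area CA3, with 3 cells of hippocampal area CA1 given beside them. The region of each cell is from its label, while the choice of these AC and CA3 cells among all those labelled follows an earlier match to cells the study drew. The study itself kept more CA3 cells than these 13. The labels name no treatment and do not tie cells to mice. Each region was therefore treated as 1 sample, no test between regions was made, and the spread given is that between cells.

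Reads on genes ranged from 1715012 to 6265431 per AC cell, from 2229519 to 7949918 per CA3 cell and from 601781 to 3202430 per CA1 cell, and 3163 to 6288, 3679 to 8149 and 4367 to 6095 genes were read in them. Npy and the genes of the GABA-making enzymes, Gad1 and Gad2, were read in all 26 cells. Slc32a1, another marker of GABAergic neurons, was read in 5 of 10 AC cells, 12 of 13 CA3 cells and 2 of 3 CA1 cells. Markers of other cell types were read as well: 4 AC cells (N4, N41, N42 and N46) and 3 CA3 cells (N27, N28 and N39) had over 1000 counts per 1000000 reads on genes (CPM) on the astrocyte, oligodendrocyte and microglia markers together, as did the CA1 cell N1 (1918 CPM). N1 also had the highest CA1 values of Pde4b, Pde1b, Pde11a and Prkar1a. By list, summed astrocyte markers reached 2820 CPM in AC (median 87.7) and 372 in CA3 (median 0), microglia markers 3707 (median 205) and 1864 (median 84.3), oligodendrocyte markers 367 and 1043, and pyramidal cell markers 190 and 383. Of the 6 markers on each list, 5 astrocyte markers were read in AC and 2 in CA3, 5 microglia markers in each, and 3 and 5 oligodendrocyte markers. Among single markers, Slc1a3 and Aldoc of astrocytes reached 835 and 1805 CPM in AC, Csf1r of microglia 2583 in AC, and C1qb of microglia and Mbp of oligodendrocytes 1648 and 949 in CA3, while Aqp4, Tmem119 and Mog had no read in the 23 cells of AC and CA3. The counts of genes past a size, the means per cell and the folds of summed CPM of 12 genes were also computed without those 7 cells, and such values are given below for the main results. The part of glial RNA in the results was otherwise not tested.

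Adenylyl cyclases make cAMP from ATP. Those in the membrane, all here but Adcy10, answer to G proteins, stimulatory or inhibitory. Some are also driven by calcium and calmodulin or held back by calcium. Phosphodiesterases break down cAMP, cGMP or both, so the enzymes a neuron carries set how long either messenger lasts. In its resting state PKA is a complex of regulatory and catalytic subunits, cAMP frees the catalytic ones, and Akap proteins hold the complex near receptors, channels and organelles. One target of PKA is the transcription factor CREB, which binds the cAMP response element (CRE).

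Promoter sequence from RefSeq (GRCm38.p6, 250 bases before to 50 after a start site) was at hand for 44 of the 54 genes, with 86 promoters in all. The palindromic CRE, TGACGTCA, was found in 2 of the 86 (2.33%), against 1.79% of 32851 promoters of all genes. Both belonged to overlapping promoters of Prkar1a, a regulatory subunit read in every cell, so they are 1 site. The shorter site TGACG, its first 5 letters, on either strand and including those inside the palindrome, was found in 17 of the 86 (19.8%), against 20.8% of all. Neither share stood apart from that of all promoters. The windows shown are those of Prkar1a, of the pair with the largest differences in mean level among the 22 genes given one below (Pde2a and Pde4b) and of the catalytic subunit gene Prkacb, with the motif in capitals, read 5′ to 3′ on the strand of the gene.
Prkar1a, chr11:109650889-109650918, plus strand: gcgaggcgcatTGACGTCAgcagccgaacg
Pde4b, chr4:102421510-102421536, plus strand: atttggctgcaCGTCAattttctcatc
Pde2a, chr7:101450523-101450549, plus strand: gggcgcaggagCGTCAcggctgctgca
Prkacb, chr3:146813033-146813059, minus strand: gggcttgaccgCGTCActtccggcgcg
The motif began 38 bases after one start site of Prkar1a and 49 before another. It began 34 before a start site of Pde4b, 102 before one of Prkacb and 14 after one of Pde2a. Genes can have several start sites, and which of them these cells used was not tested. A match of letters is a description of these windows and no measure of binding.

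The 2 regions read a like number of the 54 genes per cell, with partly different enzymes. AC cells read 18.7 ± 3.71 of them (SD, n = 10 cells) and CA3 cells 21.1 ± 4.46 (n = 13), within ranges of 13 to 23 and 10 to 28, and 19.8 and 22.6 without the 7 cells with glial marker reads. The 3 CA1 cells read 21, 16 and 22. The difference between AC and CA3 was smaller than the spread between cells. It also went with all genes read, which numbered 4758 ± 1058 per AC cell and 5860 ± 1240 per CA3 cell. As a share of the genes read, the 54 took 0.397% ± 0.0400 in AC and 0.360% ± 0.0351 in CA3.

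**Figure D1:**
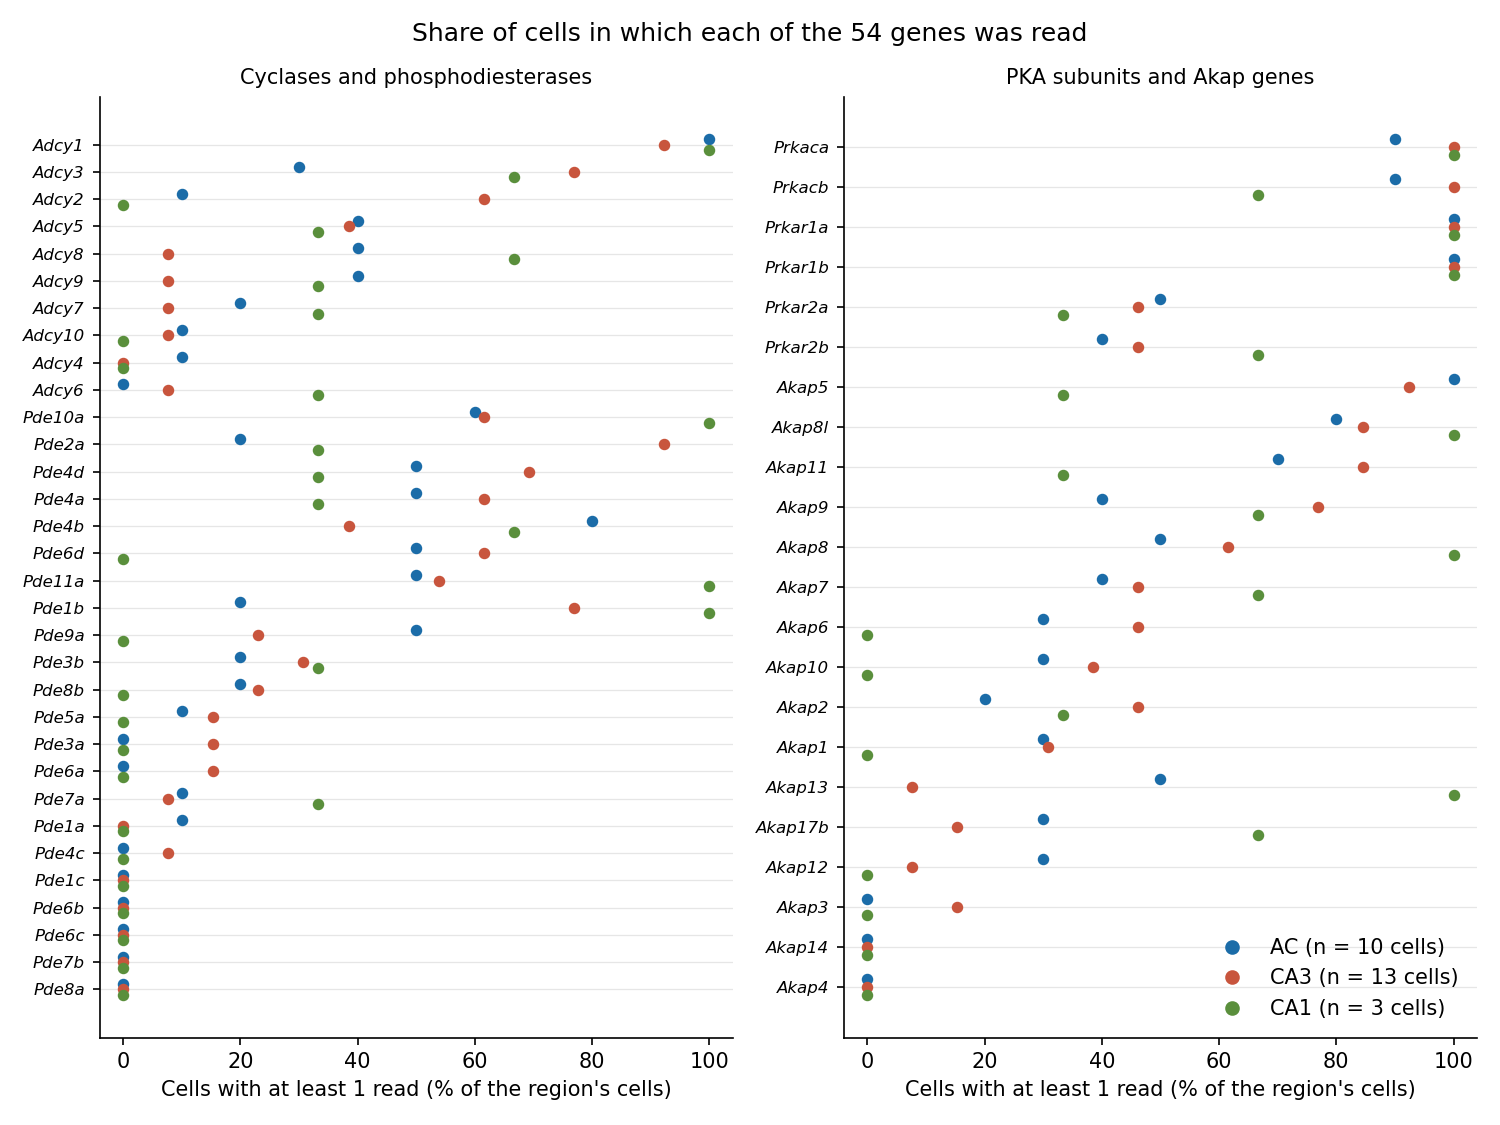
Share of cells, in percent of the region's cells, in which each of the 54 genes had at least 1 read, for AC (blue, 10 cells), CA3 (red, 13 cells) and CA1 (green, 3 cells). Prkar1a and Prkar1b sit at 100% in all 3 regions, while Pde2a lies at 20% in AC and 92.3% in CA3, and 7 genes sit at 0 in all 3 regions.

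A level, log2 of the normalised read count plus 1, was computed for the 22 of the 54 genes read in at least 10 of the 23 AC and CA3 cells. The other 32 are given by reads and cells only. Over the 5964 genes of the table that met the same minimum, mean levels in AC lay -0.91 log2 units from those in CA3 at the median, and differences are given relative to it. By that measure 3 of the 22 genes were at least 1 log2 unit higher in AC (Pde4b, Adcy1 and Prkacb), where 29.3% of the 5964 genes were, and 5 were at least 1 lower (Pde2a, Pde1b, Adcy3, Akap9 and Akap8), where 29.6% were. Of these 5, Pde2a, Pde1b, Adcy3 and Akap9 met the minimum by their CA3 cells alone (12, 10, 10 and 10 cells, against 2, 2, 3 and 4 AC cells), and none of the 5 was read in 15 or more cells. Neither count exceeded that background, so the number of genes past this size is no result about this group of genes. Not centred on the median, the split was 2 higher and 8 lower, against 15.4% and 48.1% of all genes. Without the 7 cells with glial marker reads it was 8 higher (Adcy1, Adcy3, Pde4a, Pde4b, Prkar2a, Akap5, Akap7 and Akap8l) and 6 lower (Pde1b, Pde2a, Pde4d, Pde6d, Pde11a and Akap8), against 31.7% and 32.1%. In the table as a whole, 0.0335% of genes had every AC cell above every CA3 cell and 0.0335% every AC cell below. None of the 22 genes was among them, as the cells of both regions overlapped for each.

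**Figure D2:**
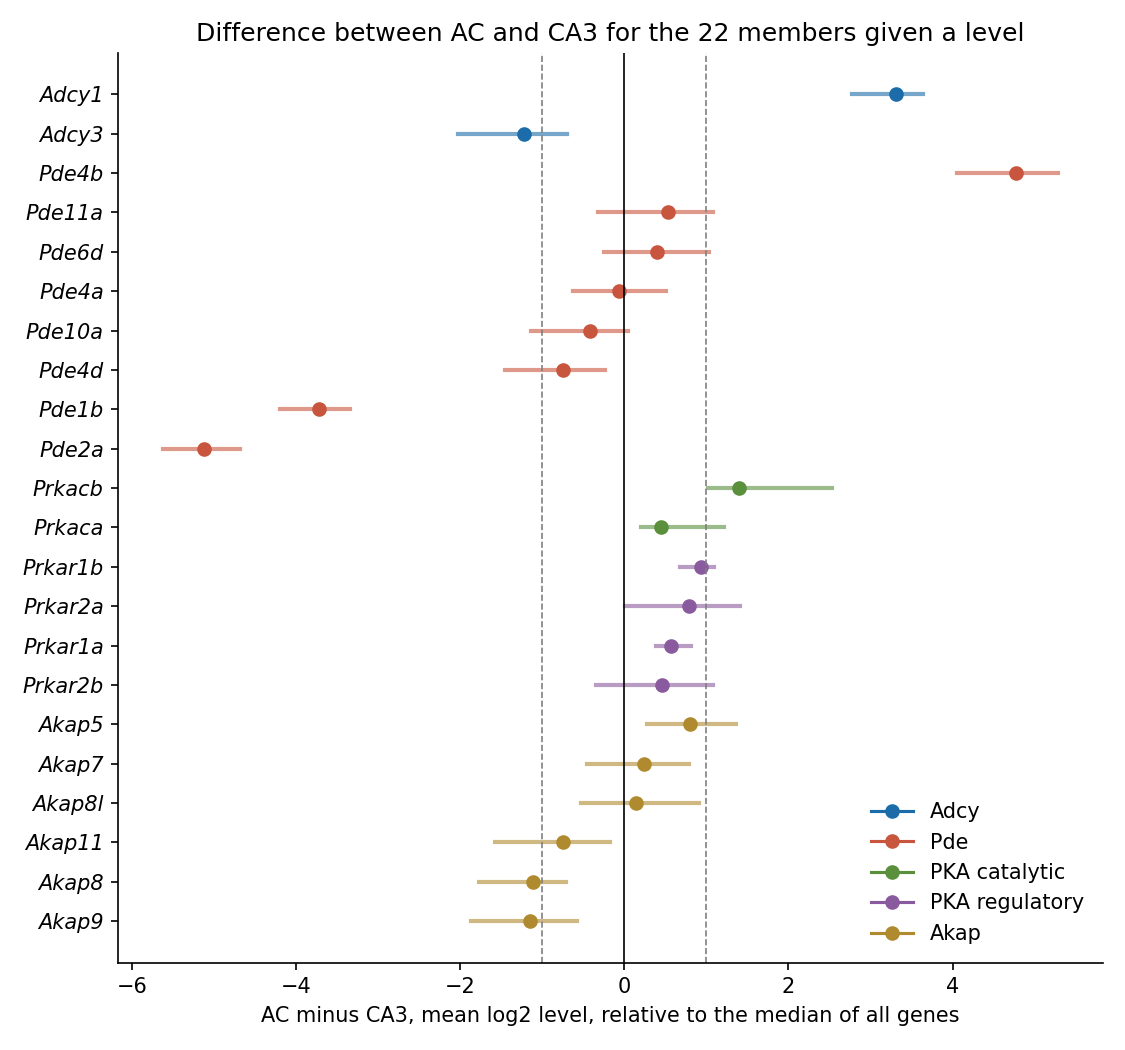
Difference in mean log2 level between AC and CA3 relative to the median of all genes (x axis, log2 units) for the 22 genes given a level, coloured by role. Points are the values over 10 AC and 13 CA3 cells, bars run from the lowest to the highest value when 1 cell at a time was left out, and dashed lines stand at -1 and 1; Pde4b at 4.78 and Pde2a at -5.12 lie farthest out.

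Among the cyclases, Adcy1 was read throughout, Adcy2 nearly only in CA3 cells, and Adcy8 and Adcy9 mainly in AC and CA1 cells. Adcy1 (chr11:7063489-7178506, plus strand), a cyclase stimulated by calcium and calmodulin, was read in 10 of 10 AC cells at 56.6, 460 and 994 CPM (lowest, median, highest). In CA3 it was read in 12 of 13 cells, at 0, 81.6 and 588 CPM, and in the CA1 cells N1, N2X and N6 it stood at 356, 364 and 106 CPM. AC cells were the higher on the whole, but the regions overlapped. With the reads of all cells added up, Adcy1 made 482 CPM of the AC total (475 to 490, exact 95% Poisson limits) and 186 CPM of the CA3 total (182 to 190), 2.6-fold apart (2.53 to 2.66). These intervals, like the others given here, cover counting error only and not the difference between cells. AC cells had a mean level of 10.3 ± 1.37 and CA3 cells one of 7.88 ± 2.79, 3.31 log2 units apart relative to all genes and 2.41 without that centring.

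Adcy2 (chr13:68620043-68999541, minus strand) is a cyclase that responds to G protein beta-gamma subunits. It had 3 reads in AC, all in cell N3X. CA3 cells gave 7293 reads, from 8 of 13 cells, at 0, 69.4 and 768 CPM (lowest, median, highest), and in CA1 none, which with 3 reads as the limit allows up to 0.596 CPM. The 5 CA3 cells without a read overlapped with AC. Summed, it took 149 CPM in CA3 and 0.0881 in AC, a ratio of 1694 with a counting interval of 580 to 8218. Of the 9 AC cells outside the compared set, N50 held a further 109 reads, and over all labelled cells the ratio was 67.5.

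Adcy8 (chr15:64697084-64922296, minus strand), also stimulated by calcium and calmodulin, ran the other way. In AC it was read in 4 of 10 cells (N3X, N43, N44 and N5) at 200.2, 399, 297 and 62.9 CPM. In CA3 it had 4 reads in all, in cell N31, and in CA1 it had 43.2, 0 and 349 CPM. Thus 6 of the 10 AC cells were as empty of Adcy8 as nearly all CA3 cells, and the others stood far above them. The ratio of summed CPM, AC to CA3, was 1131 (441 to 4153). Without N43 it was 754.

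Adcy9, a widely expressed cyclase, was read in the AC cells N3X, N4, N46 and N8 at 159, 226, 27.4 and 1.92 CPM, in the CA3 cell N29 at 18.3 CPM and in the CA1 cell N6 at 39 CPM. Of these cells, N3X in AC and N6 in CA1 also read Adcy8, and the others did not. Summed CPM was 33.4 in AC and 1.19 in CA3, 28.1-fold apart (21.6 to 37.2), and both values rested on few cells: the fold was 13.7 without N3X, and without N29 AC was at least 508-fold higher, with 3 reads over the group as the limit for CA3. Without the 7 cells, which include N4 and N46, it was 19.6.

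Adcy3, a cyclase best known from olfactory signalling and neuronal cilia, depended on the measure. It was read in 3 of 10 AC cells, at 0, 0 and 580 CPM (lowest, median, highest), and in 10 of 13 CA3 cells, at 0, 15.7 and 285 CPM. Fewer AC cells had reads but those cells had more. Its mean level was 1.22 lower in AC relative to all genes, while summed CPM was 77.4 in AC and 76.2 in CA3. The ratio of the summed CPM, AC to CA3, was 1.02, and it ran from 0.627 without N3X to 1.65 without the CA3 cell N39. The relative difference turned to 0.36 over all labelled cells, to 0.11 from summed CPM and to 1.07 without the 7 cells with glial marker reads. Its exons share 22.1% of their bases with Cenpo on the opposite strand, and the counting is not stated to use strand.

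Adcy5, a cyclase inhibited by calcium, had 19.6 CPM in AC (4 of 10 cells) and 25.8 in CA3 (5 of 13). The other 4 cyclases, Adcy4, Adcy6, Adcy7 and Adcy10, had at most 26 reads over a region's cells in AC and CA3. Per kilobase of exon, the leading cyclase of a cell was Adcy1 in 5 of 10 AC cells, Adcy3 and Adcy8 in 2 each and Adcy9 in 1. In CA3 it was Adcy2 in 5 of 13 cells, Adcy3 in 3, Adcy1 and Adcy5 in 2 each, and cell N28 had no cyclase read. All cyclases together took 729 ± 340 CPM per AC cell, 407 ± 305 per CA3 cell and 693 ± 52.9 per CA1 cell, which overlapped.

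**Figure D3:**
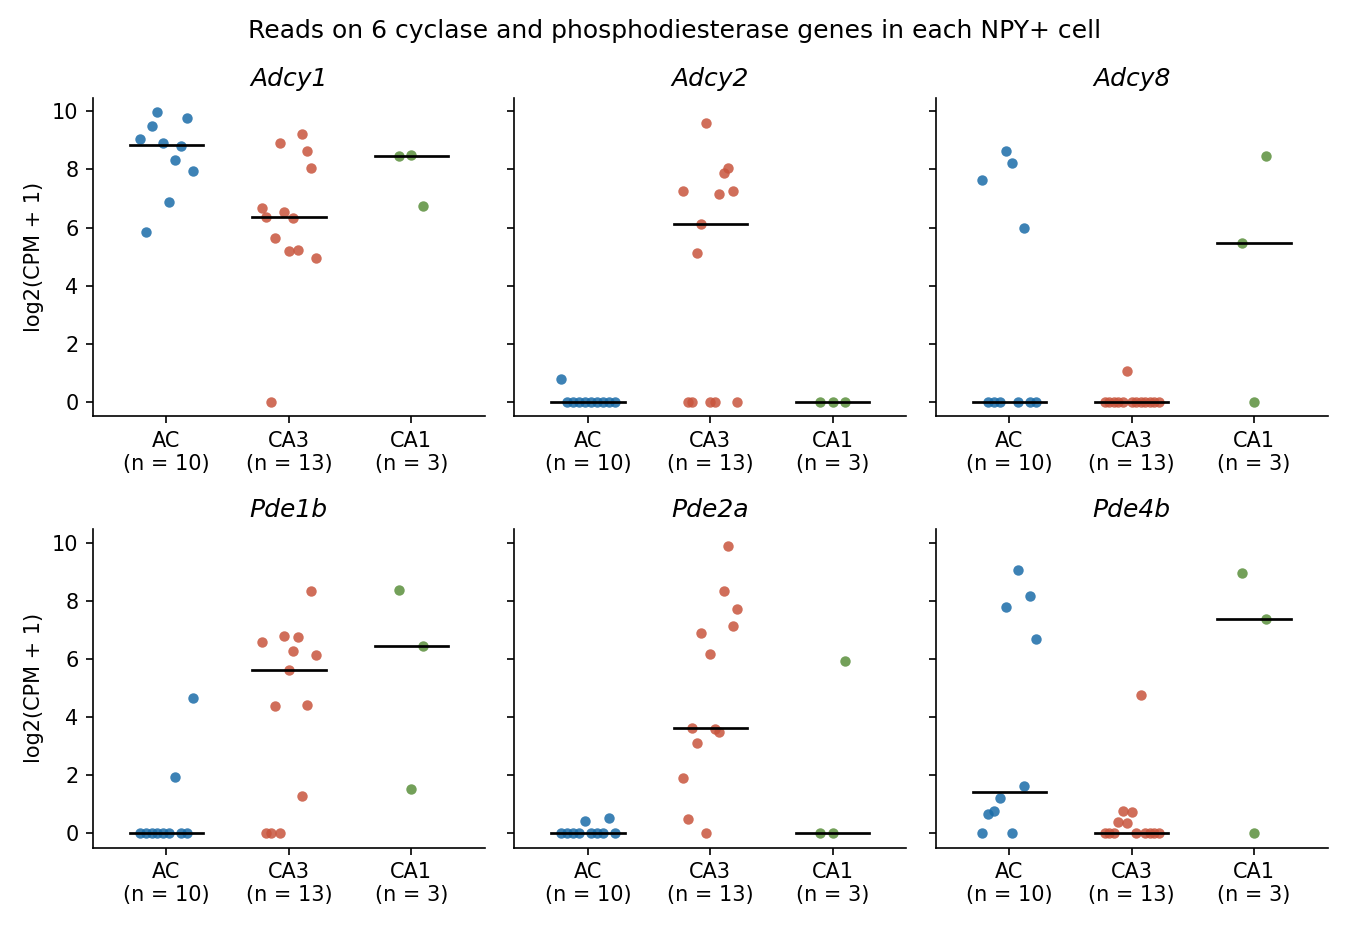
Reads of 3 cyclases (top) and 3 phosphodiesterases (bottom) in each cell of AC (n = 10), CA3 (n = 13) and CA1 (n = 3), as log2(CPM + 1). Points are cells and bars medians; Adcy2 and Pde2a are at or near 0 in all AC cells, as is Pde1b in all but N46 (2.77 CPM) and N8 (24.3 CPM), and the 3 genes spread widely over CA3 cells, whereas Adcy8 and Pde4b have their high cells in AC and CA1.

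Pde2a and Pde4b stood farthest from the median of all genes among the 22 genes given a level, a set that depends on the minimum of 10 cells and leaves out Adcy2 and Adcy8. Pde2a, which breaks down both messengers and is stimulated by cGMP (chr7:101421691-101512827, plus strand), had 2 reads in AC, 1 each in cells N43 and N7. In CA3 it was read in 12 of 13 cells with 7542 reads, at 0, 11.4 and 946 CPM (lowest, median, highest), and in CA1 at 0, 0 and 60.1 CPM. Nearly all CA3 cells stood above every AC cell, and only N27 and N31 fell within the AC range. Summed CPM was 154 in CA3 (151 to 158) and 0.0587 in AC, a ratio of 2628 with a counting interval of 727 to 21707 (1534 without the CA3 cell N38, 4909 without the AC cell N7), and the relative difference in mean level was -5.12.

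Of the 9 AC cells outside the compared set, 1 held Pde2a: cell N45, with 2017 reads among 5265115. It also held 1083 reads of Pde1b. Over all 19 labelled AC cells and 21 CA3 cells the ratio of summed CPM of Pde2a was 3.88, and the relative difference in mean level, with 17 AC cells that had a size factor, was -2.34. The low Pde2a of the 10 compared cells did thus not hold for every NPY+ cell labelled AC. Exons of Pde2a share 64.3% of their bases with Gm45837 on the same strand, which could take up reads in counting.

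Pde1b (chr15:103503034-103530052, plus strand), a calcium and calmodulin dependent phosphodiesterase, was read in 2 of 10 AC cells, N46 at 2.77 and N8 at 24.3 CPM. In CA3 it was read in 10 of 13 cells, at 0, 48.5 and 318 CPM, and in CA1 it stood at 329, 1.87 and 86.2 CPM. AC cells were lower than most CA3 and CA1 cells, and 6 of the 13 CA3 cells lay within the AC range: 3 without a read and N29, N37 and N38. The fold of summed CPM, CA3 over AC, was 19.7 (16.9 to 23.2), 288 without N8, 10.5 without the CA3 cell N39, 7.72 without the 7 cells with glial marker reads and 3.69 over all labelled cells. The relative difference in mean level was -3.72, and -0.74 over all labelled cells. Pde2a, Pde1b and Adcy2 are among the genes the study drew as differing, on a set of cells that overlaps with this one, so their direction here is not independent evidence.

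Pde4b (chr4:102087543-102607259, plus strand), a cAMP phosphodiesterase and target of rolipram, was higher in part of the AC cells. Of 8 AC cells with reads, N43, N46, N7 and N8 stood at 221, 527, 283 and 102 CPM, and the others at 0.583 to 2.12. In CA3, 5 of 13 cells had reads, of which N34 reached 25.8 CPM and the other 4 stayed at or below 0.715. The CA1 cells stood at 494, 0 and 163 CPM, the first being N1. All CA3 cells stood below the 4 high AC cells, while the remaining AC cells lay within the CA3 range. Summed CPM was 108 in AC (105 to 112) and 2.76 in CA3 (2.32 to 3.27), 39.2-fold apart, or 792-fold without N34 and 23.2-fold without N46, and 25.2-fold without the 7 cells with glial marker reads. The relative difference in mean level was 4.78. It was 2.65 to 6.62 in the 34 alternative computations.

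The related Pde4d and Pde4a are of the same family of rolipram-sensitive cAMP phosphodiesterases. Relative to all genes they did not pass the size over all cells, and both did without the 7 cells with glial marker reads, in opposite directions. Pde4d was read in 5 of the 10 AC cells against 9 of the 13 CA3 cells (36 and 56.1 CPM summed). Its relative difference was -0.74 (-1.65 without the centring, which is past the size, and -1.06 without the 7 cells). Pde4a was read in 5 of 10 and 8 of 13 cells (41 and 77.1 CPM) with one of -0.06 (2.61 without the 7 cells). The fourth gene of the family, Pde4c, had 129 reads, all in the CA3 cell N30. The difference between the Pde4 genes was not tested.

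Pde6d, a partner of prenylated proteins rather than an enzyme, was the leading Pde gene per kilobase in 5 of the 10 AC cells against 4 of the 13 CA3 cells. It had 66.1 and 63.7 CPM summed and no read in CA1, and its relative difference was 0.40 (-0.50 without the centring, -1.69 without the 7 cells). Pde11a, which breaks down both messengers, was read in 5 of 10 AC cells and 7 of 13 CA3 cells at 71.0 and 71.2 CPM summed, with a relative difference of 0.54 (-0.37 without the centring, -1.07 without the 7 cells). In CA1 all 3 cells read it, at 754, 250.4 and 173 CPM, and it was the leading Pde gene per kilobase in each. CA1 values lay within the upper part of the CA3 range except for N1, which is also the cell with the fewest reads. Pde10a, another phosphodiesterase of both messengers, was read in 6 of 10, 8 of 13 and 3 of 3 cells at 39.6, 63.3 and 89.8 CPM summed. Its relative difference was -0.42 (-1.33 without the centring, 0.52 over all labelled cells, 0.10 without the 7 cells).

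Of the phosphodiesterases read in few cells, Pde9a, which breaks down cGMP, was in 5 AC cells (23.8 CPM) and 3 CA3 cells (0.982 CPM), 24.2-fold apart (18.1 to 33.1), or 12.9 without N7 and 50.5 without the CA3 cell N37. Pde3b, which cGMP inhibits, had 937 reads in 2 AC cells and 56 in 4 CA3 cells. Several enzymes came from 1 or 2 cells. Pde1a, the other calcium and calmodulin dependent enzyme read, had 2618 reads in the AC cell N42, where microglia markers were at their highest (3707 CPM), and none in any CA3 or CA1 cell. Pde3a had 843 reads in CA3, of which N29 held 99.9%, and the cGMP enzyme Pde5a had 2058 in 2 CA3 cells, of which N39 held 88.1%, and 22 in AC. Pde8b was in 2 AC and 3 CA3 cells and Pde7a and Pde6a had at most 57 reads in AC or in CA3. Pde1c, Pde6b, Pde6c, Pde7b and Pde8a had no read in the 23 cells. A count of 0 over a region allows up to 0.0881 CPM in AC and 0.0614 in CA3.

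Reads on all Pde genes together came to 495 ± 297 CPM per AC cell and 603 ± 337 per CA3 cell, a difference smaller than the spread between cells, from 5 ± 1.63 and 6.54 ± 2.70 genes. Per kilobase, Pde2a led in 3 CA3 cells and Pde1b in 2, and neither led in an AC cell.

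Both PKA catalytic subunits were read in nearly every cell. Prkacb (chr3:146729574-146812990, minus strand), which encodes the beta catalytic subunit, was read in 9 of 10 AC cells at 0, 611 and 1339 CPM (lowest, median, highest) and in all 13 CA3 cells at 51.8, 188 and 1019 CPM. The CA1 cells had 352, 0 and 269 CPM. The AC cell without a read was N43, and otherwise the AC cells lay mostly in the upper part of the CA3 range. Summed CPM was 634 in AC (626 to 643) and 352 in CA3 (347 to 357), a 1.80-fold difference (1.77 to 1.84). The relative difference in mean level was 1.39 and the uncentred one 0.49. Without the 7 cells with glial marker reads the relative difference was -0.11, so that the higher level in AC did not hold there, and the summed CPM ratio was then 1.3. N43, without a read, was among the AC cells that remained. With N43 alone left out of the full set the relative difference was 2.53.

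Prkaca (chr8:83972993-83996443, plus strand), the alpha catalytic subunit, was read in 9 of 10 AC cells at 0, 67.4 and 210 CPM, in 13 of 13 CA3 cells at 9.42, 42.1 and 229 CPM, and in the CA1 cells at 28.2, 264 and 135 CPM. The regions overlapped, and the relative difference was 0.44, which turned to -0.46 without the centring and to -0.36 without the 7 cells with glial marker reads. Scaled by exon length, Prkacb took 66.8% ± 32.6 of the catalytic reads in AC cells and 50.9% ± 22.4 in CA3 cells, a difference smaller than the spread between cells, and 57.8% and 49% without the 7 cells with glial marker reads. It was the larger of the pair in 8 of 10 AC cells and 6 of 13 CA3 cells. By reads not scaled to length, Prkacb exceeded Prkaca in 9 of the 10 AC and 11 of the 13 CA3 cells, with mean shares of 79.6% and 74.9%. In CA1 its share was 78.0%, 0% and 36.1%.

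Of the regulatory subunits, the type I genes were read in every cell at like levels in all regions, and the type II genes in at most 50% of the cells of AC and of CA3. Prkar1a (chr11:109649405-109669656, plus strand), encoding the type I alpha subunit, stood at 173, 767 and 1795 CPM in AC (lowest, median, highest), at 562, 964 and 1885 CPM in CA3, and at 2120, 970 and 882 CPM in CA1. Prkar1b (chr5:139017306-139150001, minus strand), the type I beta subunit found mainly in brain, stood at 628, 856 and 2702 CPM in AC, at 436, 1158 and 2085 CPM in CA3, and at 1177, 1318 and 2108 CPM in CA1. Between cells these varied the least of the 22 genes in both regions, except for Pde2a in AC, which was nearly unread there (SD 0.468): the SD of the level was 1.03 and 0.578 for Prkar1a in AC and CA3, and 0.883 and 0.633 for Prkar1b, against 4.32 and 1.77 for Pde4b. Uncentred, AC stood -0.34 from CA3 in mean level for Prkar1a and 0.02 for Prkar1b, and relative to all genes by 0.57 and 0.93, so that the sign for Prkar1a turned with the centring.

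Prkar2a, type II alpha, was read in 5 of the 10 AC cells against 6 of the 13 CA3 cells at 38.9 and 37 CPM summed. Prkar2b, type II beta, was read in 4 of 10 and 6 of 13 cells at 81.4 and 160 CPM, of which the CA3 cell N39 held 76.6%. Their relative differences were 0.79 and 0.46, and both turned below 0 without the centring (-0.11 and -0.45), while without the 7 cells with glial marker reads they were 1.63 and 0.32. Scaled by exon length, type I genes took 94.2% ± 11.7 of regulatory reads in AC cells, 95.9% ± 6.46 in CA3 cells and 94.7% ± 6.91 in CA1 cells, which did not differ beyond the spread, and 91.0% and 96.6% in AC and CA3 without the 7 cells. The lowest share was 63.9%, in the AC cell N7, which also held the most Prkar2a (335 CPM) among all cells.

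Catalytic reads were few beside regulatory ones in every cell. Per kilobase, for every 100 regulatory reads there were 18.9 ± 7.86 catalytic reads in AC cells, 10.6 ± 8.46 in CA3 cells and 11.7 ± 6.56 in CA1 cells. This ratio was added after the values had been seen. All AC cells but N7 (4.56) lay between 13.8 and 31.7. In CA3, 10 of 13 cells lay between 2.77 and 9.94, while N37, N38 and N40 stood at 23.4, 24.5 and 26.7. The regions therefore overlapped through 1 AC cell and 3 CA3 cells. Without the 7 cells with glial marker reads the means of AC and CA3 were 16.7 and 12.2, and over all labelled cells 45.4 and 26. Without length scaling they were 31.8 and 14.7.

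**Figure D4:**
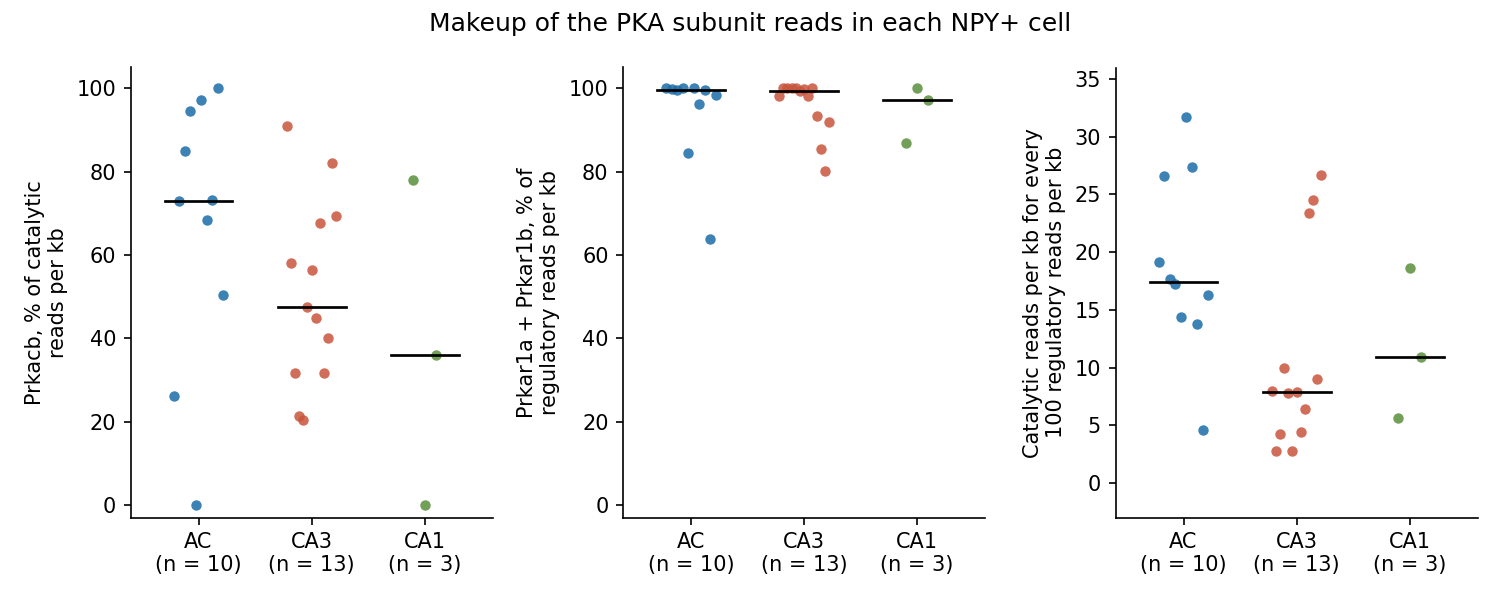
Makeup of the PKA subunit reads in each cell: Prkacb in percent of catalytic reads per kilobase (left), Prkar1a plus Prkar1b in percent of regulatory reads per kilobase (middle), and catalytic reads per kilobase for every 100 regulatory reads per kilobase (right). Points are cells and bars medians; the type I share lies near 100% in most cells of AC, CA3 and CA1, and the ratio on the right has its median at 17.4 in AC and 7.86 in CA3.

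Most anchoring protein genes were read in cells of both AC and CA3. Akap5, which anchors PKA and calcineurin at postsynaptic membranes, was read in 10 of 10 AC cells and 12 of 13 CA3 cells, at 111 and 74.2 CPM summed. It had 1 read in the 3 CA1 cells. Its relative difference was 0.80, with CPM from 0.303 to 297 in AC and 0 to 180.1 in CA3, and it was -0.11 without the centring and 1.24 without the 7 cells with glial marker reads. Akap8l, a nuclear protein related to Akap8, had 338 and 288 CPM summed in AC and CA3 and was read in 8 of 10 and 11 of 13 cells, with a relative difference of 0.14, which was -0.77 without the centring and 1.39 without the 7 cells. Per kilobase it led the Akap genes in 3 of the 10 AC cells against 7 of the 13 CA3 cells.

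Akap13 (chr7:75455534-75754609, plus strand), a large anchoring protein, was read in 5 of 10 AC cells, with N3X, N4, N41 and N5 at 103, 699, 299 and 253 CPM and N43 at 0.320. In CA3 it had 12 reads in all, in cell N28, and in CA1 all 3 cells read it, at 74.8, 830.3 and 5.69 CPM. AC cells thus fell into 4 with many reads and 6 with 1 read or none, and the latter lay in the CA3 range. Summed CPM was 99.9 in AC and 0.246 in CA3, a ratio of 407 (232 to 788), which was 307 over all labelled cells and, with 3 reads over the group as the limit for CA3, at least 1548 without N28, which held all the CA3 reads. Of the 4 high AC cells N4 and N41, and the CA3 cell N28, were among those with glial marker reads, and without the 7 cells AC was at least 516.5-fold higher, with 3 reads over the group as the limit for CA3.

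Akap9, a large anchor of the Golgi and centrosome, was read in 4 of the 10 AC cells against 10 of the 13 CA3 cells at 24.5 and 93.8 CPM, a 3.84-fold difference towards CA3 (3.56 to 4.14; 2.51 without N34, 11.3 without N7 and 2.48 without the 7 cells), and its relative difference was -1.15, or -0.19 without the 7 cells. Akap8, a nuclear anchor, was read in 5 of 10 and 8 of 13 cells at 79.8 and 101 CPM, with a relative difference of -1.12, and the AC cell N8 held 82.4% of its AC reads. Of 34 alternative computations, 13 put Akap9 and 14 put Akap8 under the size used. Akap11 had 184 and 130.2 CPM (relative difference -0.75, with -1.66 without the centring and 0.51 without the 7 cells). Akap7 had 52.4 and 55.9 CPM (0.24, with -0.67 without the centring and 1.88 without the 7 cells). Akap11 was read in 7 of 10 and 11 of 13 cells and Akap7 in 4 of 10 and 6 of 13.

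The other Akap genes were read in at most 6 cells of a region. Akap6, an anchor at the nuclear envelope and sarcoplasmic reticulum of muscle and neurons, had 136 CPM in AC, of which N46 held 60.5%, and 40.5 in CA3, of which N27 held 63.0%, and both cells had over 1000 CPM on glial markers. Akap12 had 658 reads in 3 AC cells and 100 in 1 CA3 cell. Akap1, an anchor at mitochondria, had 9.51 CPM from 3 AC cells and 28.3 CPM from 4 CA3 cells. For Akap10 these were 20.0 CPM from 3 and 25.0 CPM from 5 cells, and for Akap17b 19.6 CPM from 3 and 33.8 CPM from 2 cells. Akap2 had 7.02 CPM from 2 AC cells and 33.9 CPM from 6 CA3 cells, but 84.4% of its exon bases are shared with Pakap on the same strand, so that its reads are uncertain. Akap3 had 290 reads in 2 CA3 cells, and Akap4 and Akap14 none in either region.

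Beside these 54 genes, 31 other gene symbols of the pathway were looked at as a list, of which 29 were in the table and 13 had a level. The 2 absent ones, Gucy1a1 and Gucy1b1, are newer symbols of Gucy1a3 and Gucy1b3, which were in it. By the same size 5 of the 13 were higher in AC, 1 was lower and 7 were under it, with the same background of 29.3% and 29.6% of all genes. Without the centring it was 5 higher and 6 lower, against 15.4% and 48.1%. Their median relative difference was 0.61, that of the 22 enzyme, subunit and anchor genes 0.32 and that of all genes 0. The inhibitory G protein subunit gene Gnai3 was read in 7 of the 10 AC cells against 4 of the 13 CA3 cells at 192 and 24.2 CPM (relative difference 5.61). Crtc1, a coactivator of CREB, was read in 8 of 10 and 5 of 13 cells at 52.9 and 7.96 CPM (4.40), and Crebbp, a CREB-binding acetyltransferase, in 8 of 10 and 12 of 13 cells at 125 and 65.2 CPM (2.39).

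Gnal, a stimulatory G protein subunit, was read in 9 of 10 and 8 of 13 cells at 159 and 62.0 CPM (3.71), and Pkia, an inhibitor of the PKA catalytic subunit, in 7 of 10 and 7 of 13 cells at 286 and 155 CPM (2.17). Relative to all genes, the 1 pathway gene past the size in the other direction was Pkig, another PKA inhibitor, at 55.4 and 103 CPM (-1.51). Without the centring Pkig stood at -2.42, and Gucy1b3, Ppp1r1a, Gnai1, Rapgef4 and Gnai2 also passed it, at -1.72 to -1.14. These 6 genes were named after their values were seen. The cells of the regions overlapped for each of these genes. Of the genes for cGMP synthesis and its kinase, Gucy1b3, which encodes a subunit of soluble guanylyl cyclase, alone had a level.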

How the data were processed

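The authors deposited 1 table of read counts, with no normalisation, for 22800 gene symbols in 47 single cells. The submitters' processing notes name Trimmomatic, STAR, featureCounts and GRCm38, while the methods of the study name another counter (HTSeq). Gene symbols were from Ensembl version 86, and genes that shared a symbol had been averaged. Versions of the tools were not given in the sources used here, and the methods list sense, antisense and both as strand options without the one chosen. The genes and lists were chosen with earlier results of these data known, and every one of the 54 is named: those read in at least 10 of the 23 AC and CA3 cells with a level, the others by reads or CPM and cells, and of the pathway list the 5 with the largest difference and 6 named after their values were seen.

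Size factors were computed with scran 1.30.0 (R 4.3.3, pools of 10 and 20) over 26 cells, and levels as log2 of the count divided by the factor plus 1. A difference of 1 relative to the median of 5964 genes was the size used; no test was made, as cells of unknown mice are not replicates. CPM are counts per 1000000 reads on genes, with exact 95% Poisson intervals, and a ratio has an exact conditional binomial one. Reads without molecular identifiers are not independent molecules. Lengths and overlaps are those of GENCODE release M21 exons (GRCm38); positions and promoters are of that build. Alternatives used edgeR 4.0.16 and DESeq2 1.42.0 size factors, library size, other pseudocounts and filters, counts thinned to 601000 reads per cell, all labelled cells (a column nearly identical to N4, r = 0.995, averaged with it, and 2 cells without a positive size factor left out of levels), and each cell left out in turn. The calculation was run on simulated counts, which had no added zeros and were scaled by library size. That run checks the arithmetic and not how well the measure suits these data. Python 3.11.15 with scipy 1.17.1 was used.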

Additional observations from a re-analysis of the deposited data

Results flagged for a closer look

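In the 10 AC cells, 4 of the 22 genes given a level had 1 cell whose distance to the next was a large share of the whole range (above Dixon's 95% critical value). That value is for normally distributed values, and these levels include zeros from cells without a read. It was used as a flag only, and no chance rate is given. Pde1b was highest in N8, at a level of 6.43 with 152 reads, where the next cell stood at 3.40. Prkaca was lowest in N7, at 0, where the next cell stood at 4.98, and Prkacb was lowest in N43, at 0, where the next stood at 8.21. Prkar1a was lowest in N3X, at 9.04 with 702 reads, where the next stood at 11.

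Reads of these genes were also found in cells that no comparison used. Of the 54 genes, 9 had more than 3 reads in N16, the NPY-negative CA3 cell, led by Prkacb with 145 reads. In the dentate gyrus cells N11 and N12, 5 and 4 genes had more than 3 reads, led by Akap6 with 363 reads and by Pde4b with 87. These 3 cells held 291745, 89297 and 190573 reads on genes, fewer than any cell compared.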

How the results depend on the processing

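Of the 22 genes given a level, Adcy1, Pde4b and Pde2a stayed past the size in the 34 alternatives computed for single genes, with relative differences of 1.46 to 4.82, 2.65 to 6.62 and -7.22 to -2.34. Pde1b did in 33 (not over all labelled cells), Prkacb in 31, Akap9 in 21, Akap8 in 20 and Adcy3 in 19. A minimum of 15 cells leaves out Pde4b (13 cells) and Pde2a (14). The relative difference of Adcy3 turned to 0.36 over all labelled cells, 0.11 from summed CPM and 1.07 without the 7 cells with glial marker reads, an alternative chosen after seeing the data, which also turned Prkacb to -0.11. The cause was not tested. Folds of summed CPM with a cell left out or over all labelled cells were also added after seeing the data. The counts of 3 genes higher and 5 lower in AC became 3 and 2 with a pseudocount of 10 or thinned counts, 6 and 5 with a pseudocount of 0.1, 6 and 3 over all labelled cells, 2 and 3 from summed CPM, 2 and 8 not centred, 9 and 9 with any gene read included, 3 and 0 among genes read in at least 15 cells, and 8 and 6 without the 7 cells. TMM, DESeq2 and library size factors and a fit on 23 cells left them at 3 and 5. With 1 cell left out they ranged from 3 to 6 higher (6 without N7, N8 or N40) and from 3 to 6 lower. Members read per cell fell to 13.8 in AC and 16 in CA3 over all labelled cells. The Prkacb share was 79.6% in AC and 74.9% in CA3 without length scaling. Catalytic reads per 100 regulatory reads were 31.8 in AC and 14.7 in CA3 without length scaling, and 45.4 in AC and 26 in CA3 over all labelled cells. No paired analysis was possible because the labels give no mouse or pairing and no test was made. Depth limits the genes read in few cells: 3 reads are 0.0881 CPM over AC and 0.0614 over CA3.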

Other observations

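The 9 AC and 8 CA3 cells with a label but outside the compared set also held reads of these genes. Pde7b, a cAMP phosphodiesterase with no read in the 23 compared cells, had 9965 reads in the AC cell N50 and 4176 in N47, where it was the only Pde gene with more than 1 read. Adcy1 had 14153 reads in the AC cell N51, and Pde4b had 8539 in N48, beside 3781 of Adcy3 and 1458 of Adcy8. Prkar1a reached 47821 reads in N47, in which Prkar1b had none. Of these cells N45, with Pde2a, Pde1b, Pde1a and Adcy1 together (2017, 1083, 447 and 641 reads), read 20 of the 54 genes among 6209 genes in all, within the range of the compared AC cells, whereas N47, N48, N50 and N51 read 1565 to 1814 genes each. In CA3, N36 read 5 of the 54 genes, with 5381 reads of Prkar1b, 3821 of Prkar1a, 1938 of Akap8l and 1575 of Adcy1.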
